A study of Papio anubis and Macaca mulatta with 6 samples.

Results

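Interferon-stimulated genes were followed through every cell class of the immature primate testis. The set had 9 genes, IFI6, ISG15, IFI27, IFIT1, IFIT3, MX1, IFITM1, IFITM2 and IFITM3, chosen by symbol when their UMI levels in these same cells and libraries were already known, so that those levels are described here without a test. Of these, 5 were found under their symbol among the 34178 genes of the baboon tables (IFI6, ISG15, IFIT1, IFIT3 and MX1) and 6, the same with IFI27, among the 21356 genes of the rhesus tables. IFITM1, IFITM2 and IFITM3 in both species and IFI27 in the baboon were not analysed here. The tables hold unique molecular identifiers (UMIs), which count RNA molecules, of testis cells from 2 olive baboons (Papio anubis) and 2 rhesus macaques, each species described alone. Baboon 1 was sequenced as the library pair 1A and 1B, rhesus 2 as the pair 2A and 2B, while from baboon 2 (library 2) and rhesus 1 (library 1) there was a single library. All were 10x Genomics 3′ libraries, of chemistry version 3 for baboon 2 and version 2 for the others, so that animal and chemistry cannot be told apart in the baboon. The labels give the animals as untreated and name no allele or strain for them, and the testes came from necropsies done for another reason, which the sources used here do not describe. The tissue was digested with collagenase and then trypsin, with a wash in between that removes interstitial cells, so the shares of cell classes are not those of the intact organ. Ages of 15 and 20 months for the baboons, and newborn and 26 months for the macaques, stand in the text of the series, whereas the paper attaches each pair of ages to the opposite species. Ages were therefore assigned to no animal and entered no comparison.

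Interferons are secreted proteins that warn cells of a virus. Type I interferons bind the receptor IFNAR1-IFNAR2, whose kinases JAK1 and TYK2 pass the signal on to the nucleus, where a complex that contains IRF9 binds a short element in front of the genes described here. IFI6 and IFI27 are small hydrophobic proteins of one family, found in membranes of the endoplasmic reticulum and mitochondria. ISG15 is a ubiquitin-like protein that the enzymes UBA7, UBE2L6 and HERC5 attach to other proteins and that USP18 removes. IFIT1 and IFIT3 form a complex that binds foreign RNA by its 5′ end, and MX1 is a GTPase that traps viral components. IFITM1 to IFITM3 are membrane proteins that hinder virus entry. Many of these genes have a low level without infection, set by a weak and constant interferon signal. In the testis, viruses such as mumps virus can reach Sertoli and Leydig cells. Germ cells later than spermatogonia lie behind the Sertoli cell barrier once it has formed.

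The element bound by the complex of IRF9 can be read as a pair of GAAA cores with any 2 bases between them, and this motif was searched on both strands in the 250 bases in front of the RefSeq gene start of each gene in the rhesus genome (Mmul_10), where overlapping matches count separately. Of 20782 promoters, 629 (3.03%) held the motif. Among the 6 genes measured in the macaque, IFI6 held 4 matches, ISG15 and IFI27 held 2 each, and IFIT1, IFIT3 and MX1 held none. The windows with a match are shown 5′ to 3′ along the gene's strand, with the matched bases in capitals, because IFI6 and IFI27 were the members with the most UMIs and ISG15 had the nearest pair of matches. The window of IFI6 is chr1:197051336-197051585 (plus strand), that of ISG15 is chr1:223405103-223405352 (minus strand) and that of IFI27 is chr7:156288803-156289052 (plus strand).
IFI6: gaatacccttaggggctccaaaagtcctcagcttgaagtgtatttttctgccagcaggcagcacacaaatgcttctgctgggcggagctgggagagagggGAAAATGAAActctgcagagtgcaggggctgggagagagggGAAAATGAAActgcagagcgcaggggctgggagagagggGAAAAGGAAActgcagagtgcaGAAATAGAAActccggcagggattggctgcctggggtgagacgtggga
ISG15: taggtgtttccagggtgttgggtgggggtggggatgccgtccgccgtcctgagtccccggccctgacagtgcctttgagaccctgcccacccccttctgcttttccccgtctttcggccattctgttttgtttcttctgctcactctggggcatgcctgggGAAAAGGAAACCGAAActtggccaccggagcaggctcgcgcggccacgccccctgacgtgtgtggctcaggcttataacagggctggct
IFI27: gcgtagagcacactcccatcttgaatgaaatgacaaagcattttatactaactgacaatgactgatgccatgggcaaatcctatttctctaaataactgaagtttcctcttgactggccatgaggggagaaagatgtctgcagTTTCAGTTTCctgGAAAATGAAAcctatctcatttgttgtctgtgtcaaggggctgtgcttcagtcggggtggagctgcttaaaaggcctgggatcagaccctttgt
The 4 matches of IFI6 began between 150 and 48 bases before the start. Those of ISG15, at 89 and 83 bases, overlapped each other, and those of IFI27, at 107 and 94 bases, lay on opposite strands. Other annotated transcript starts gave other counts, with 3 matches and 1 match before the later starts of IFIT1 and 1 match before one start of MX1, but no match before the start of IFI6 at position 197052692, so both the presence and the absence of a match apply only to the window searched. In the baboon genome (Panubis1.0), IFI6 and ISG15 likewise lie on chromosome 1, IFIT1 and IFIT3 on chromosome 11 and MX1 on chromosome 4. The promoters of the baboon genes were not analysed here.

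The libraries held 16875294 to 49803025 UMIs, of which 57.7% to 87.4% lay in cells, and 5575 to 11155 cells were called per library, with 1 to 124 barcodes shared between any pair of libraries of a species. Clusters were named from marker lists, with the members and the interferon pathway genes left out of the features used for clustering. Some class names go against a part of their cells. Of the 133 endothelial-like cells of rhesus 1, 62 had UMIs of at least 2 of 10 lymphoid markers (genes of T, natural killer and B cells), whose summed level was 3201.4 CPM (UMIs of a gene scaled to a common total of UMIs) there and 0.930 in the 610 endothelial-like cells of rhesus 2. Of the same 133 cells, 60 had at least 2 of 11 endothelial markers, and CDH5 was at 0, against 593 of the 610 cells of rhesus 2. In the baboon, the macrophage-like cells were a mixture as well. In baboon 1, 25 of 39 had at least 2 lymphoid and 14 at least 2 macrophage markers, and in baboon 2 the counts were 38 and 26 of 68. The lymphoid level was 4313.7 and 3103.8 CPM in these macrophage-like cells, and 0 to 22.9 CPM in the other baboon classes. The 96 pericyte-like cells of rhesus 1 had 21 with at least 2 of 9 pericyte markers, with NOTCH3, CSPG4, ABCC9 and STEAP4 at 0 and a summed stroma marker level of 6494.3 CPM, against 239 of 263 cells and 2904.3 CPM in rhesus 2. Member levels, ratios and shares of the first of these groups are given with and without the cells with lymphoid markers. A cluster of 1110 baboon cells (cluster 8) led by INSL3 and DLK1, 1 of 1877 rhesus cells (cluster 5) led by WFDC1 and HAPLN1, and 1 of 53 cells, all of rhesus 2 (cluster 16), stay without a name. In the germ-like cells of the macaque, 134 of 529 and 34 of 96 cells had at least 2 germ markers and MAGEA4 was at 0, and the summed Sertoli markers (1346.1 and 1074.3 CPM in rhesus 1 and 2) exceeded the summed germ markers (630.4 and 607.7 CPM). In the germ-like cells of the baboon, 96 of 124 and 97 of 112 had at least 2 germ markers. The part that these admixtures have in the levels below was not tested, except where values without such cells are given.

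In the baboon, IFI6 had its highest level in Sertoli-like cells, the nurse cells of the seminiferous cords. ISG15, IFIT1, IFIT3 and MX1 were highest in endothelial-like cells, MX1 only with the cells with lymphoid markers kept in the classes. All 5 were at their lowest or near it in germ-like cells. IFI6 reached 2396.5 CPM in library 1A, 2248.2 in 1B and 3716.0 in baboon 2 in Sertoli-like cells. It was 1240.9, 1056.4 and 2482.4 CPM in the same libraries in endothelial-like cells and 249.0, 199.6 and 465.1 CPM in germ-like cells. In each library the Sertoli-like level was above, and the germ-like level below, that of every other class. Libraries 1A and 1B are of the same animal, and the share of all genes with such an order was not counted. As the mean log2 ratio over the 2 animals, endothelial-like cells were at -0.80 ± 0.31 (SD, n = 2) relative to Sertoli-like cells, and germ-like cells at -3.17 ± 0.24. In baboon 1, the order after Sertoli-like cells was endothelial-like (1153.4 CPM, exact Poisson 95% interval 1072.9 to 1238.3), stroma-like (1015.9, interval 972.6 to 1060.7), cluster 8 (822.5), macrophage-like (794.0) and pericyte-like (643.4). The intervals of the last 3 overlapped, and that of macrophage-like cells also reached into that of stroma-like cells. In baboon 2, endothelial-like (2482.4, interval 2373.2 to 2595.3) and macrophage-like cells (2214.1, interval 2011.6 to 2431.5) overlapped, as did stroma-like cells, cluster 8 and pericyte-like cells at 1350.1 to 1405.0 CPM. All such intervals cover counting error only.

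ISG15, the protein tag, had 264.9, 239.4 and 433.6 CPM in endothelial-like cells of libraries 1A, 1B and 2. The Sertoli-like levels were 124.8, 122.1 and 162.7 CPM, and the germ-like levels 17.5, 23.1 and 36.0 CPM. The 3 endothelial-like values thus lay above all 3 Sertoli-like values, which lay above all germ-like values. As for IFI6, the share of all genes separated in this way was not counted. The endothelial-like to Sertoli-like log2 ratio was 1.22 ± 0.27 (SD, n = 2 animals) and the germ-like to Sertoli-like one -2.43 ± 0.35. Pericyte-like cells were as low as germ-like cells in baboon 1, at 21.3 CPM (interval 5.80 to 54.5) against 19.4 (11.8 to 29.9), with 0 UMIs in library 1B, which at a floor of 3 counts allows up to 61.6 CPM.

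IFIT1 and IFIT3, the partners in the RNA-binding complex, ran in parallel. IFIT1 had 181.4, 137.2 and 406.7 CPM in endothelial-like cells, 34.3, 38.3 and 67.2 in Sertoli-like cells and 1.46, 5.78 and 2.45 in germ-like cells of libraries 1A, 1B and 2. The germ-like values rest on 1, 2 and 3 UMIs. IFIT3 had 293.7, 210.6 and 468.1 CPM in endothelial-like cells, 82.1, 85.5 and 87.5 in Sertoli-like cells and 11.6, 5.78 and 12.3 in germ-like cells. For both genes the 3 classes kept this order in every library, again without a count of all genes that do so. The log2 ratio of endothelial-like to Sertoli-like cells was 2.38 ± 0.31 for IFIT1 and 2.01 ± 0.57 for IFIT3 (SD, n = 2). Stroma-like cells and cluster 8 stood between, at 58.5 and 71.8 CPM of IFIT1 in baboon 1 and at 87.7 and 123.5 in baboon 2, so that Sertoli-like cells, which were first for IFI6, had less IFIT1 than either.

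MX1, the antiviral GTPase, had 103.6, 70.2 and 255.8 CPM in endothelial-like cells and 41.6, 41.0 and 81.4 in Sertoli-like cells. The lowest class was again the germ-like one, at 4.37, 5.78 and 14.7 CPM. Macrophage-like cells had 58.5, 0 and 141.5 CPM, from 3, 0 and 28 UMIs, and the 0 in library 1B allows up to 90.7 CPM. Without the cells with lymphoid markers, MX1 in macrophage-like cells was 95.2 CPM in baboon 1 (3 UMIs in 14 cells) and 359.8 in baboon 2 (21 UMIs in 30 cells), and IFI6 was 1395.6 and 3255.6 CPM in place of 794.0 and 2214.1. The MX1 values lay above the endothelial-like ones without such cells, at 85.9 CPM in baboon 1 and 255.8 in baboon 2, but rest on few UMIs. The macrophage-like values of MX1 and IFI6 moved with the lymphoid markers, and their part in the differences from other classes was not tested further.

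**Figure D1:**
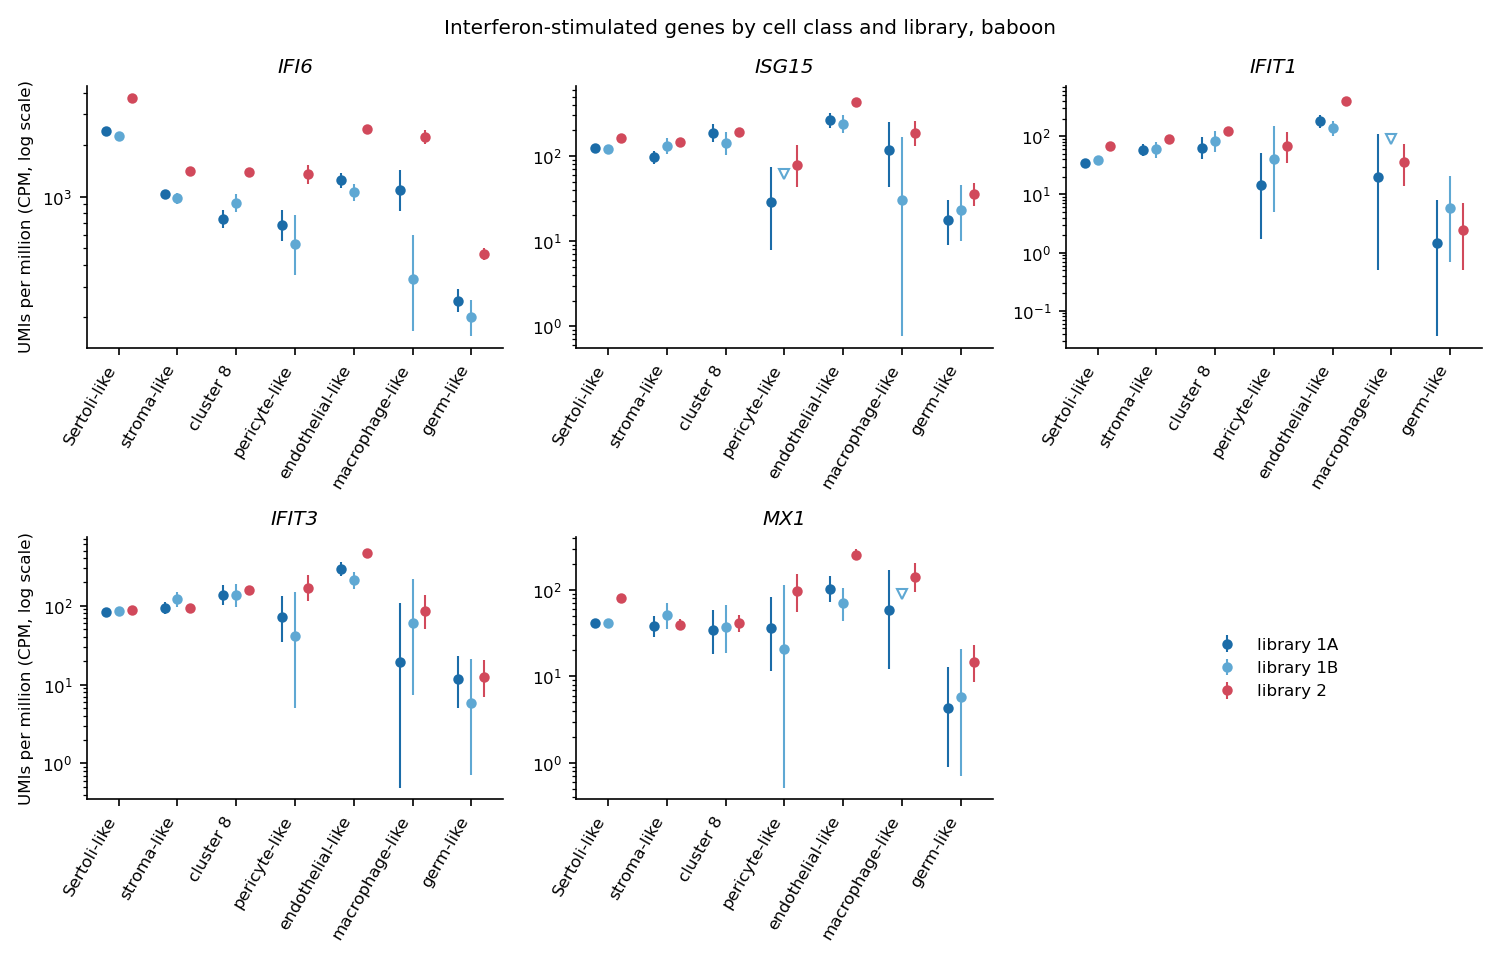
Level of the 5 measured genes in the baboon, in CPM on a log scale, by cell class, with 1 point per library and exact Poisson 95% intervals; open triangles mark 0 UMIs and stand at the floor of 3 counts. IFI6 is highest in Sertoli-like cells (2248.2 to 3716.0 CPM) and the other genes in endothelial-like cells, with the cells with lymphoid markers kept. Germ-like cells stand at or near the bottom of each panel.

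In the macaque, IFI27 and IFI6 were highest in Sertoli-like cells, and IFIT1 and IFIT3 in endothelial-like cells, as far as both animals were alike. The levels of most genes differed between the animals. In Sertoli-like cells every measured gene was higher in rhesus 1, at ratios of 1.32 (IFI27) to 2.52 (IFIT1). For IFIT1 and IFIT3 the ratio was larger there (2.52 and 2.36) than in endothelial-like cells (2.07 and 1.69). IFI27 had 2886.7, 2207.2 and 2171.1 CPM in Sertoli-like cells of libraries 1, 2A and 2B. Leydig-like cells, the steroid-producing cells between the cords, followed in libraries 2A and 2B with 1696.8 and 2012.3 CPM, and had 2136.9 CPM in rhesus 1. In stroma-like cells the same 3 libraries had 1738.2, 455.2 and 460.7 CPM, in macrophage-like cells 2095.7, 140.8 and 266.0 CPM, and in endothelial-like cells 1696.8, 89.8 and 74.6 CPM. In rhesus 1, Leydig-like cells (interval 2056.8 to 2219.3), cluster 5 (2221.8, interval 2154.0 to 2291.1) and macrophage-like cells (interval 1910.1 to 2294.4) did not differ beyond counting error. In rhesus 2, the order was Sertoli-like (2189.7), Leydig-like (1850.2), cluster 5 (872.6), pericyte-like (482.9) and stroma-like (457.8), and only the last 2 overlapped. Germ-like cells had 432.8, 361.2 and 71.3 CPM, and the last 2 values come from libraries of 1 animal, with 124 UMIs in 47 cells and 18 UMIs in 49 cells. The log2 ratio of germ-like to Sertoli-like cells was -2.97 ± 0.33 (SD, n = 2 animals), whereas that of endothelial-like to Sertoli-like cells was -2.75 ± 2.80, a spread as large as the value, and -2.52 ± 3.12 without the cells with lymphoid markers.

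IFI6, the relative of IFI27, had 1603.1, 1077.7 and 1104.2 CPM in Sertoli-like cells of libraries 1, 2A and 2B. It was lower in macrophage-like cells (1334.4, 387.2 and 497.3), endothelial-like cells (688.7, 216.3 and 237.8), stroma-like cells (607.7, 106.1 and 103.7) and germ-like cells (209.2, 203.9 and 83.2). Sertoli-like cells were first in each library, with germ-like cells last in libraries 1 and 2B, and Leydig-like cells last in library 2A, at 100.8 CPM. In libraries 2A and 2B the last place lay within counting error of the stroma-like level. Leydig-like cells thus had much IFI27 and, at 388.5, 100.8 and 91.9 CPM, little IFI6. Germ-like cells were at -2.89 ± 0.07 on the log2 scale relative to Sertoli-like cells and endothelial-like cells at -1.74 ± 0.74 (SD, n = 2). Without the cells with lymphoid markers, the endothelial-like level of IFI6 in rhesus 1 was 926.4 CPM and the ratio -1.53 ± 1.04.

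IFIT3 had 262.0, 152.7 and 157.2 CPM in endothelial-like cells, against 61.6, 23.6 and 28.9 in Sertoli-like cells and 18.1, 2.91 and 3.96 in germ-like cells. IFIT1 had 142.2, 61.9 and 76.6 CPM in endothelial-like, 33.2, 14.1 and 12.1 in Sertoli-like and 12.3, 11.7 and 3.96 in germ-like cells. For both genes every endothelial-like value lay above every Sertoli-like value, with log2 ratios of 2.33 ± 0.34 for IFIT3 and 2.24 ± 0.20 for IFIT1 (SD, n = 2). Libraries 2A and 2B are of the same animal, and the share of all genes with such an order was not counted. The germ-like values of IFIT3 in libraries 2A and 2B rest on 1 UMI each. IFIT1 had no UMI in the 77 macrophage-like cells of rhesus 2, which allows up to 15.0 CPM, and 40.3 CPM (9 UMIs) in those of rhesus 1. Without the cells with lymphoid markers, the endothelial-like levels of rhesus 1 were 389.2 CPM for IFIT3 and 214.1 for IFIT1, and the ratios 2.61 ± 0.07 and 2.54 ± 0.21.

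ISG15 and MX1 did not share the endothelial-like peak of the IFIT genes in the macaque. ISG15 had 130.6, 62.0 and 75.5 CPM in Sertoli-like cells and 192.1, 42.7 and 43.8 in endothelial-like cells of libraries 1, 2A and 2B, so that endothelial-like cells were higher in rhesus 1 and lower in rhesus 2. The mean log2 ratio of -0.05 ± 0.86 (SD, n = 2) had no stable sign and was 0.12 ± 1.11 without the cells with lymphoid markers, where ISG15 in rhesus 1 stood at 245.2 CPM. MX1 was alike, with 81.1, 47.4 and 44.8 CPM in Sertoli-like cells, 89.8, 34.9 and 33.8 in endothelial-like cells and a ratio of -0.14 ± 0.40 (0.14 ± 0.80 without those cells, with MX1 at 132.3 CPM in rhesus 1). MX1 was highest in macrophage-like cells of rhesus 1 (250.8 CPM), and in rhesus 2 those of 2A and 2B had 70.4 and 23.1 CPM from 8 and 2 UMIs. In germ-like cells, ISG15 had 35.5, 58.3 and 47.5 CPM and MX1 had 18.8, 37.9 and 19.8. Leydig-like cells of rhesus 2 were lower than its germ-like cells for both genes, at 8.23 CPM (interval 3.31 to 17.0) against 53.7 (36.7 to 75.8) for ISG15 and 2.35 (0.285 to 8.50) against 30.2 (17.9 to 47.8) for MX1. Germ-like cells were therefore not the lowest class for every gene in the macaque.

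**Figure D2:**
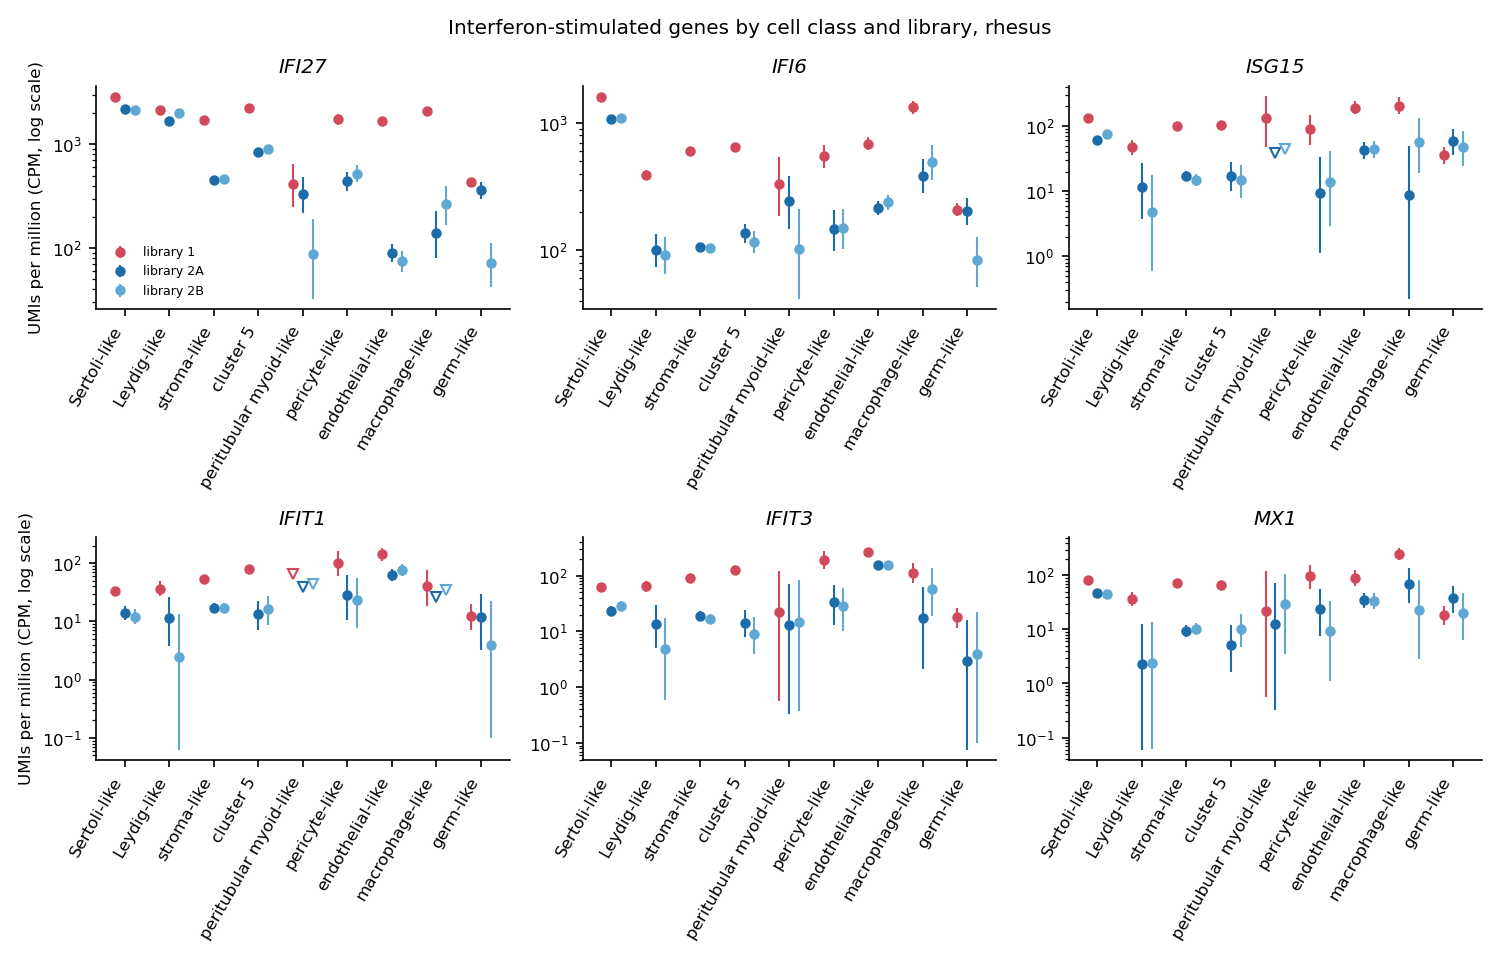
Level of the 6 measured genes in the macaque, in CPM on a log scale, by cell class, with 1 point per library, exact Poisson 95% intervals and open triangles for 0 UMIs at the floor of 3 counts; cluster 16 is not drawn. The Sertoli-like points of the 3 libraries lie close together for IFI27 (2171.1 to 2886.7 CPM). They do not for IFIT1, which differed 2.52-fold between the animals there. Library 1 stands apart from 2A and 2B in stroma-like, endothelial-like and macrophage-like cells.

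The free RNA of near-empty droplets held the same genes. IFI6 was at 2229.4, 1401.0 and 3728.9 CPM in the free RNA of libraries 1A, 1B and 2, and at 998.2, 768.6 and 753.6 in libraries 1, 2A and 2B. This was above the mean over cells in 5 of 6 libraries, and below it in 1B, where the cells had 2058.9 CPM. IFI27 was at 2109.1, 1648.2 and 1444.4 CPM in the macaque. The levels of IFI6 and IFI27 in any class can hold a part from free RNA. A bound on the free share was taken from the gene that was scarcest in a class relative to free RNA. It was 8.90% for the germ-like cells of rhesus 1, where subtraction took IFI27 from 432.8 to 269.1 CPM and IFI6 from 209.2 to 132.1 CPM. It was 9.12% for the endothelial-like cells of that animal, where IFI27 went from 1696.8 to 1655.4 CPM. In 1B the scarcest gene gave 0 in every class, so that subtraction changed nothing there. In the endothelial-like cells of rhesus 2, IFI27 stood at 74.6 to 89.8 CPM although the free RNA of the same libraries held 1444.4 to 1648.2 CPM.

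Per cell, the 4 genes other than IFI6 and IFI27 were sparse. After each cell had been thinned to 1000 UMIs, and shallower cells left out, IFI6 was found in 83.2% of 11665 Sertoli-like cells of baboon 1 (exact binomial 95% interval 82.5% to 83.9%) and 93.1% of 3906 of baboon 2 (92.2% to 93.9%). The shares before thinning were 93.0% and 96.9%. In germ-like cells, the class with the least IFI6, they were 25.0% of 108 and 19.2% of 104 cells after thinning and 50.8% and 48.2% before. The median depths differed, with 1979 and 4379 UMIs in Sertoli-like cells and 8164 and 7536.5 in germ-like cells, and 1266 and 397 Sertoli-like and 16 and 8 germ-like cells were left out. IFIT3 was found in 25.5% of 137 and 38.8% of 134 endothelial-like cells, against 8.23% and 8.32% of Sertoli-like cells and 1.85% of the 108 germ-like cells of baboon 1 and none of the 104 of baboon 2, whose interval reaches 3.48%. In the macaque, IFI27 was found in 93.3% and 79.9% of Sertoli-like cells of rhesus 1 and 2, in 86.2% and 78.0% of Leydig-like cells, and in 62.5% of 120 against 6.99% of 529 endothelial-like cells (87.9% of 58 in rhesus 1 without the cells with lymphoid markers). The germ-like shares of IFI27 were 32.9% of 331 cells and 16.4% of 55.

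ISG15, IFIT1, IFIT3 and MX1 were also counted together in the same thinned cells. At least 1 of them was found in 45.3% and 73.1% of endothelial-like cells of baboon 1 and 2, and at least 2 in 14.6% and 34.3%. In Sertoli-like cells the shares were 22.2% and 30.7% for at least 1 gene and 3.44% and 4.63% for at least 2. None of the 108 and 104 germ-like cells had 2 of the genes, and 5.56% and 4.81% had 1. In the macaque, the share with at least 1 gene was 22.3% and 12.4% in Sertoli-like, 33.3% and 25.0% in endothelial-like and 19.7% and 5.36% in stroma-like cells of rhesus 1 and 2. In the endothelial-like cells of rhesus 1 it was 51.7% of 58 cells without those with lymphoid markers. Of the stroma-like cells, 162 of 4164 in rhesus 1 and 9 of 6851 in rhesus 2 had at least 2. Germ-like cells had 9.37% and 3.64% with at least 1.

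**Figure D3:**
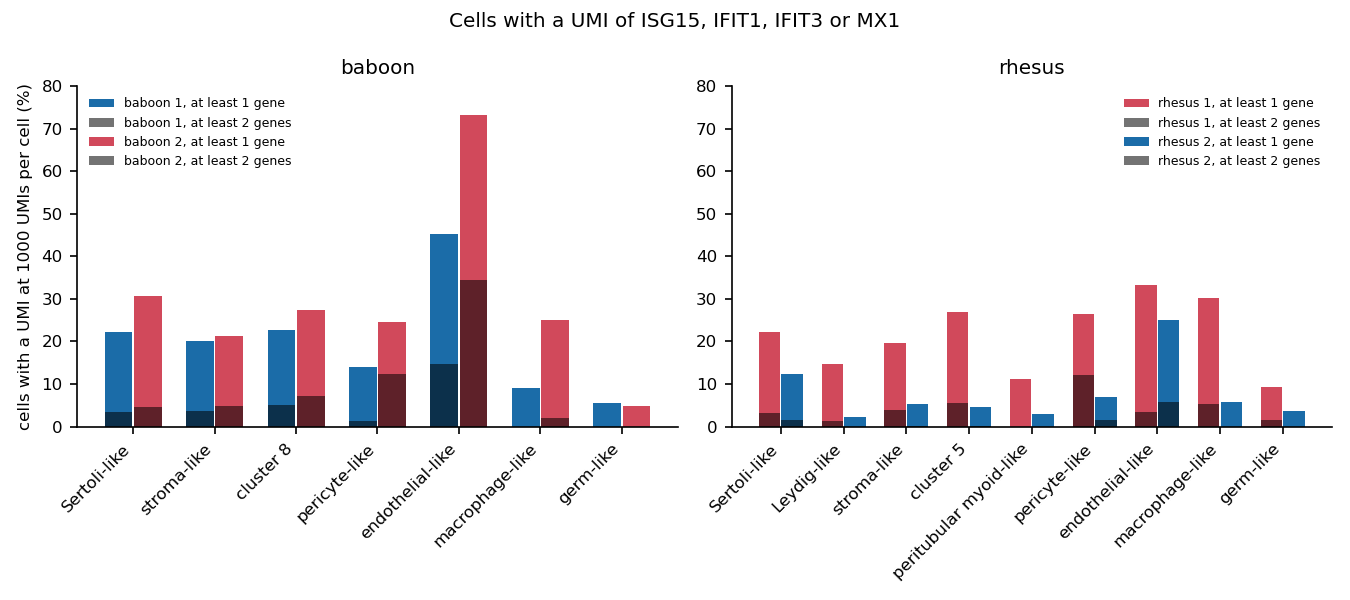
Share of cells with a UMI of ISG15, IFIT1, IFIT3 or MX1 at 1000 UMIs per cell, in percent, by cell class and animal; coloured bars show cells with at least 1 of the 4 genes and dark bars within them cells with at least 2. The tallest bars are the endothelial-like cells of baboon 2 (73.1%), and in stroma-like cells rhesus 1 (19.7%) stands above rhesus 2 (5.36%).

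Between animals, which are 1 each and give no test, every measured gene was higher in rhesus 1 than in rhesus 2 in stroma-like cells, the class with the most cells. The ratio was 7.23 for MX1 (exact 95% interval 5.95 to 8.85), 6.20 for ISG15 (5.31 to 7.27), 5.79 for IFI6 (5.45 to 6.16), 5.03 for IFIT3 (4.33 to 5.86), 3.80 for IFI27 (3.68 to 3.92) and 3.06 for IFIT1 (2.59 to 3.62). All 6 were thus past 2-fold, and so were 8.07% of the 10124 genes with at least 50 UMIs in those cells (10.8% were past 2-fold lower), whose median ratio was 0.877. Of 54 other interferon pathway genes counted there, 24 (44.4%) were past 2-fold higher, among them MX2, IFI44, BST2, IRF1, IRF9, PSMB8, PSMB9 and B2M, and 3 were past 2-fold lower. In Sertoli-like cells the ratios were 2.52 for IFIT1, 2.36 for IFIT3, 1.90 for ISG15, 1.76 for MX1, 1.47 for IFI6 and 1.32 for IFI27. There 2 of 6 were past 2-fold, against 3.34% of 9852 genes (18.5% were past 2-fold lower), whose median ratio was 0.706. Of 53 other interferon pathway genes counted there, 13 (24.5%) were past 2-fold higher and 4 past 2-fold lower. The summed Sertoli markers in stroma-like cells were at 1732.4 CPM in rhesus 1 and 818.3 in rhesus 2, and the free RNA share was bounded at 5.57% in rhesus 1. Subtracting it left IFI6 in stroma-like cells of rhesus 1 at 584.7 CPM, where libraries 2A and 2B had 106.1 and 103.7. The part of the Sertoli markers and of free RNA in the difference between the animals was not tested.

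IFI27 differed most between the animals in endothelial-like cells, at 20.5-fold (interval 17.4 to 24.3), and in macrophage-like cells, at 10.8-fold (7.75 to 15.3). In Leydig-like cells it was at 1.15 (1.08 to 1.23). In the same cells IFI6 was at 4.03 (3.18 to 5.15), ISG15 at 5.70 (2.60 to 14.8), IFIT1 at 5.19 (2.21 to 14.9) and IFIT3 at 6.85 (3.32 to 16.4). In rhesus 2, ISG15, IFIT1 and IFIT3 rest on 7, 6 and 8 UMIs there, and MX1, at 15.6 (4.07 to 132.4), on 2. In endothelial-like cells 5 of 6 genes were past 2-fold, against 6.36% of 5767 genes, and the lowest ratio was 1.69 for IFIT3. Leaving out the cells with lymphoid markers gave 2319.8 CPM of IFI27 in the remaining 71 endothelial-like cells of rhesus 1, against 82.7 CPM in rhesus 2, so that the difference is larger without them. IFIT3 was then at 389.2 against 154.8 CPM. Macrophage-like cells had 4 of 4 countable genes past 2-fold (8.70% of 977 genes), Leydig-like cells 4 of 5 (7.32% of 3827) and pericyte-like cells 2 of 2 (8.06% of 1761), with the limits of the pericyte-like cells of rhesus 1 given above. In germ-like cells 0 of 3 were (3.77% of 5073), and ISG15 and MX1 were at 0.660 (0.414 to 1.07) and 0.623 (0.329 to 1.21), intervals that include 1.

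The baboon animals also differ in chemistry. In Sertoli-like cells, baboon 2 over baboon 1 gave 1.97 for MX1, 1.88 for IFIT1, 1.59 for IFI6, 1.31 for ISG15 and 1.05 for IFIT3 (0.996 to 1.11). There 0 of 5 genes were past 2-fold, against 12.5% of 13942 genes. Of 71 other interferon pathway genes counted there, 16 (22.5%) were past 2-fold higher and 1 was past 2-fold lower. In endothelial-like cells, MX1 was at 2.91 (2.17 to 3.97), IFIT1 at 2.53 (2.03 to 3.19), IFI6 at 2.15 (1.98 to 2.34), IFIT3 at 1.84 and ISG15 at 1.72, so that 3 of 5 genes were past 2-fold against 7.93% of 4479 genes. In stroma-like cells 0 of 5 were (10.1% of 9634), and MX1 and IFIT3 had ratios of 0.923 (0.712 to 1.21) and 0.910 (0.770 to 1.08). Of 61 other pathway genes counted in stroma-like cells, 15 (24.6%) were past 2-fold higher and 3 past 2-fold lower. IFI6 was at 2.00 (1.72 to 2.34) in germ-like cells, where 1 of 2 countable genes was past 2-fold (6.67% of 6780), at 2.79 (2.15 to 3.66) in macrophage-like cells (1 of 1, 12.3% of 675) and at 2.10 (1.68 to 2.63) in pericyte-like cells (1 of 1, 7.92% of 997).

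**Figure D4:**
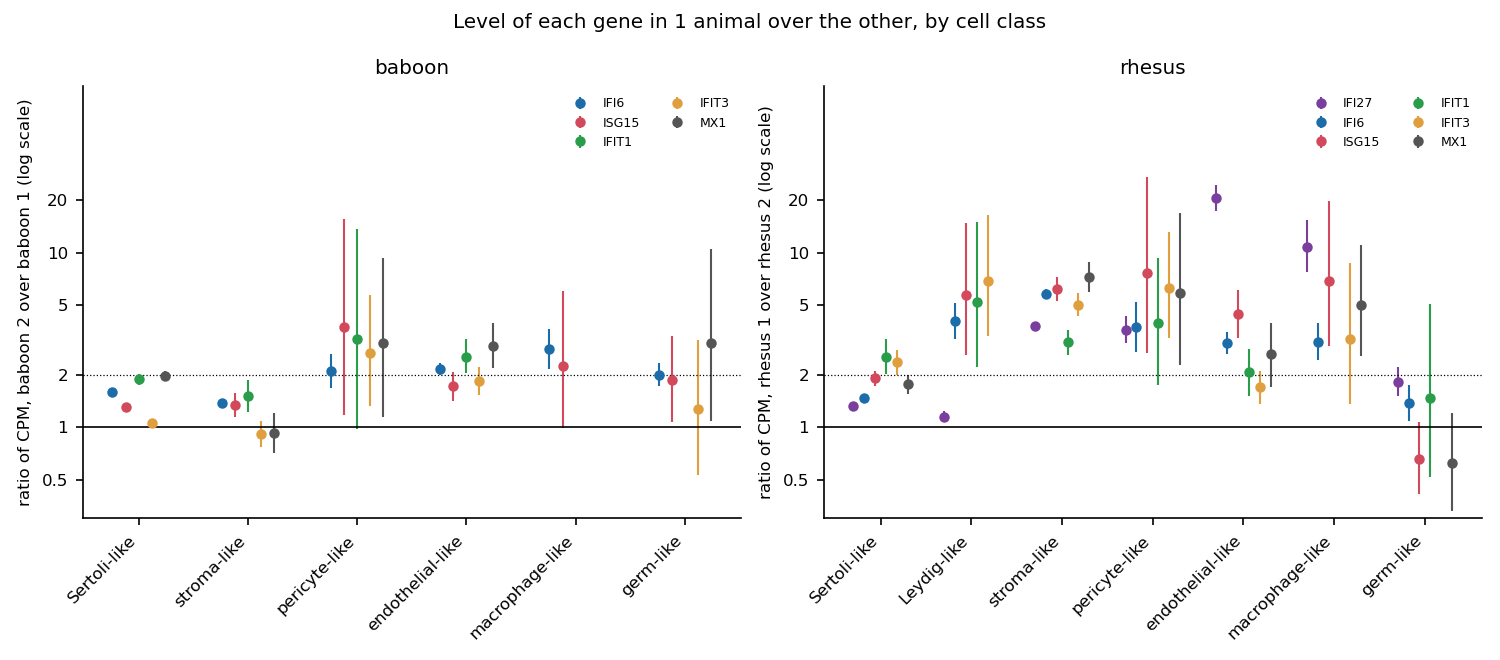
Ratio of the CPM of each gene between the 2 animals of a species, on a log scale, by cell class, with exact 95% intervals for counting error, for genes with over 3 UMIs in both animals; the dotted line marks 2-fold and peritubular myoid-like cells are left out. In the macaque all stroma-like points lie above 2-fold and IFI27 reaches 20.5 in endothelial-like cells but 1.15 in Leydig-like cells, whereas in the baboon the Sertoli-like points lie between 1.05 and 1.97.

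Levels also varied between clusters within the Sertoli-like class. Over the 8 Sertoli-like clusters of the baboon, IFI6 ran from 2181.8 to 3161.3 CPM in baboon 1 and from 2915.6 to 4519.5 in baboon 2. The highest was cluster 5 in both animals, at 3161.3 and 4519.5 CPM. ISG15 ran from 94.7 to 261.5 CPM in baboon 1 and from 126.6 to 221.5 in baboon 2, with its highest value in baboon 1 in cluster 13, which had 19 and 30 cells and was led by the cell cycle genes UBE2C and TOP2A. Over the 3 rhesus clusters, IFI27 ran from 2409.7 to 3321.5 CPM in rhesus 1 and from 1726.9 to 2899.4 in rhesus 2. In the 6 stroma-like clusters, every IFI6 value of rhesus 1 (539.6 to 824.6 CPM) lay above every value of rhesus 2 (96.7 to 116.5), so the difference between the animals was present in each cluster. The clusters of an animal are not replicates, and the share of all genes that separate the animals in this way was not counted.

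The genes whose level over the sums per animal and class was most like that of a member were named by Pearson's r of log2(CPM + 10), as a description, over 14 sums and 13930 genes in the baboon and 19 sums and 11061 genes in the macaque. The sums share libraries and depth. In the baboon, ISG15 was most like EIF2AK2 (0.934), which encodes the RNA-activated kinase PKR, IFI44L (0.924) and SNAP23 (0.910), and MX1 was most like IFI44 (0.934), HERC6 (0.925) and WASF2 (0.908). IFI6 had TSPO (0.946), the cholesterol-binding protein of the outer mitochondrial membrane, UFC1 (0.924) and LOC101001711 (0.908). IFIT1 had OXR1 (0.945), KLHL24 (0.930) and LOC101024360 (0.910), and IFIT3 had OXR1 (0.927), KLHL24 (0.927) and CALCOCO2 (0.922). In the macaque, ISG15 was most like DDX60 (0.930) and NMI (0.900), and MX1 was most like PSME2 (0.907), IFI44 (0.892) and IFI44L (0.888). IFI6 had TM9SF1 (0.888), DHX58 (0.883) and GNG7 (0.853), IFIT1 had KLF2 (0.893), IFIT2 (0.859) and APOL4 (0.839), and IFIT3 had GPCPD1 (0.891), BTN3A3 (0.884) and APOL2 (0.878). IFI27 had ACOT13 (0.902), its relative IFI27L2 (0.858) and MCTS1 (0.855).

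Among the members themselves, IFIT1 and IFIT3 were the closest pair in the baboon (r = 0.966), and IFI6 and MX1 in the macaque (0.871), nearly level there with IFIT1 and IFIT3 (0.870). IFI27 was the member least like the others in the macaque, with r between 0.380 for IFIT3 and 0.512 for IFI6. IFI6 and IFIT1 were the least alike pair of the baboon (0.667).

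The other genes of the interferon pathway, from a list of ligands, receptors, signalling proteins, sensors, effectors and antigen presentation genes, were tested for each class against the mean of the other named classes with the animal as a block (edgeR's quasi-likelihood test, Benjamini-Hochberg adjusted over all genes, n = 2 animals). The list was chosen with earlier results of these data known, so its counts beside those of all genes are a description. Each fit removed any shift in level that all classes of an animal shared. The p-values therefore rest in part on how far class differences disagreed between the 2 animals, pooled over the named classes. The test also moves the spread of each gene towards a trend over all genes. Small p-values thus rest on spread shared over genes as well, and not on the 2 animals alone. The fits left 5 residual degrees of freedom in the baboon and 7 in the macaque. How the class differences vary in further animals was not tested. Where another class held no UMI of a gene its log mean has no finite value, so that a higher call then rests on that class and a lower call cannot be made. This held for 8 of 72 baboon and 13 of 57 rhesus genes of the list, and counts are therefore also given for the genes with a UMI in every named class, a choice made after the data were seen. In endothelial-like cells, 55 of 72 baboon genes were higher and 2 lower, where 16.4% and 6.22% of all genes were called, and 40 of 57 rhesus genes were higher and 0 lower, where 12.8% and 4.24% were. The median log2 fold change of the list was 1.84 in the baboon and 1.93 in the macaque, beside 0.09 and 0.10 over all genes. Among genes with a UMI in every class, 52 of 64 and 30 of 44 were higher (15.5% and 10.5% of all such genes). Receptors were among them: IFNAR1 and IFNAR2, the chains that bind type I interferon, were called higher in both species, with IFNAR1 at 162.0 and 218.7 CPM in endothelial-like and 54.5 and 63.1 in Sertoli-like cells of baboon 1 and 2. Of the effectors, 32 of 37 rose in the baboon and 19 of 26 in the macaque. In the baboon, among effectors with a UMI in every class, those with the largest changes were GBP1 (log2 fold change 4.53 ± 0.28 SE, adjusted p = 1.45e-12), a GTPase that attacks microbes inside cells, TRIM22 (4.39 ± 0.24, adjusted p = 1.26e-13), a ubiquitin ligase, and CXCL10 (4.16 ± 0.53, adjusted p = 8.44e-07), a chemokine. OAS2, which makes the activator of RNase L, was at 78.7 and 72.9 CPM in baboon and 47.4 and 26.0 CPM in rhesus endothelial-like cells (adjusted p = 9.86e-11 and 3.02e-05). It had no UMI in at least 1 other class, so that no fold is given and the call rests on such classes.

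Antigen presentation genes were called higher in endothelial-like cells for 5 of 6 baboon and 7 of 7 rhesus genes tested. CD74, the chaperone of class II molecules, was at 6541.9 and 1108.8 CPM in baboon 1 and 2 (adjusted p = 8.86e-17) and 5462.1 and 1584.1 CPM in rhesus 1 and 2 (log2 fold change 6.17 ± 0.20 SE, adjusted p = 3.23e-13). The baboon call of CD74, and those of CIITA and NLRC5 in the macaque, rest on classes without a UMI. CIITA, the activator of class II genes, was at 29.9 and 20.9 CPM (adjusted p = 7.67e-05) and NLRC5, the activator of class I genes, at 37.4 and 38.1 CPM (adjusted p = 8.38e-05) in the macaque. Without the cells with lymphoid markers, rhesus 1 had 8290.7 CPM of CD74, 58.4 of OAS2, 46.7 of CIITA and 42.8 of NLRC5. In the other direction, the secreted glycoprotein LGALS3BP (-1.66 ± 0.30, adjusted p = 0.000129) and the signalling inhibitor SOCS1 (-1.51 ± 0.49, adjusted p = 0.0251) were lower in the baboon, and SOCS1 was not called without the cells with lymphoid markers. SOCS1 was also lost without library 1A (edgeR adjusted p = 0.0558). The only ligand called, IFNG of T and natural killer cells, came from 50 UMIs in rhesus 1 and 0 in rhesus 2 (adjusted p = 0.000252). DESeq2 did not call it (adjusted p = 0.334), and without the cells with lymphoid markers it had 0 UMIs. The counts of the list were then 57 of 74 higher and 1 lower in the baboon (16.1% and 3.12% of all genes) and 39 of 56 and 0 in the macaque (13.1% and 5.11%).

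Macrophage-like cells had 31 of 72 baboon genes higher and 0 lower (7.11% and 2.15% of all genes) and 30 of 57 rhesus genes higher and 0 lower (9.08% and 1.96%). Among genes with a UMI in every class the counts were 25 of 64 and 23 of 44 (5.15% and 6.55% of all such genes). Of the genes called, 4 in the baboon (CD74, ISG20, OAS2 and TLR7) and 7 in the macaque, among them IFI30, OAS2 and CIITA, rest on a class without a UMI. CD74 was at 7774.1 and 3467.8 CPM in the baboon (adjusted p = 1.07e-17) and 19796.8 and 9090.8 CPM in the macaque (log2 fold change 9.07 ± 0.20 SE, adjusted p = 5.61e-16). In the macaque, IFI30, a thiol reductase of lysosomes, had 120.9 and 699.7 CPM (adjusted p = 3.27e-06), MX2 rose by 4.49 ± 0.78 on the log2 scale (adjusted p = 0.00046), and OAS2 (31.3 and 25.0 CPM, adjusted p = 0.000829) and CIITA (8.96 and 20.0 CPM, adjusted p = 0.00711) rested on 12 and 6 UMIs. In the baboon, CXCL10 was at 402.9 and 15.2 CPM (4.96 ± 0.77, adjusted p = 3.91e-05, but 0.478 without library 1A) and ISG20, an RNA exonuclease, at 142.2 and 91.0 CPM (adjusted p = 2.63e-08). TLR7, a sensor of single-stranded RNA, had 2 and 4 UMIs (adjusted p = 0.00133), as did OAS2 (adjusted p = 0.0133). Left without the cells with lymphoid markers, 20 of 74 baboon genes were called higher (4.29% of all genes), which leaves OAS2 out, and with only the UMI cutoff for calling cells 12 of 73 (3.51%). The rhesus count was 31 of 56 (9.16%) without those cells.

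Sertoli-like cells, where IFI6 and IFI27 peaked, had 13 of 72 baboon genes higher and 24 lower (21.6% and 12.0% of all genes) and 4 of 57 rhesus genes higher and 10 lower (14.1% and 7.31%). The share of the list that was lower was therefore above that of all genes in both species. The share higher was below it, but near it in the baboon (18.1% beside 21.6%) and resting on 4 genes in the macaque. Among genes with a UMI in every class, 18.8% and 9.09% were higher, beside 24.3% and 13.9% of all such genes. Lower were 37.5% and 22.7%, beside 15.5% and 9.14%. The difference between the shares of the list and of all genes was not tested. Of the genes higher, DHX58, a regulator of RNA sensing, LGALS3BP and HERC5 were called in both species. LGALS3BP rose by 1.74 ± 0.18 (SE) in the baboon (adjusted p = 3.77e-08) and by 2.54 ± 0.32 in the macaque (adjusted p = 1.11e-05). HERC5, the ligase of ISG15, rose by 1.38 ± 0.19 (adjusted p = 3.43e-06) and 2.80 ± 0.29 (adjusted p = 1.58e-06), HERC6 by 2.66 ± 0.39 (adjusted p = 5.43e-05) and DHX58 by 1.07 ± 0.31 (adjusted p = 0.0186) in the macaque, and USP18 by 1.57 ± 0.34 (adjusted p = 0.000788) in the baboon. IFNE, an interferon of epithelia, had 18.9 and 10.6 CPM in baboon Sertoli-like cells (591 and 365 UMIs, adjusted p = 0.000336), and TAPBP had 10.2 and 19.8 CPM (adjusted p = 0.00753). Both calls rest on a class without a UMI. IFNE had at most 17.2 CPM elsewhere, in germ-like cells of baboon 2, so only its level in baboon 1 lay above all other classes. TAPBP reached 30.3 CPM elsewhere, so it does not show a level above all other classes. Nor do USP18 in the baboon (29.7 and 28.4 CPM) or HERC6 (34.4 and 35.5) and DHX58 (38.5 and 36.2) in the macaque. USP18 reached 35.6 CPM in the 39 macrophage-like cells of baboon 1, of which 25 had lymphoid markers. HERC6 reached 39.9 in the 133 endothelial-like and DHX58 49.3 in the 116 macrophage-like cells of rhesus 1. These highest values were taken over both animals, so that an animal was not compared with its own classes alone, and they come from classes of few cells. For HERC5 in both species, a single animal had a Sertoli-like level above all other classes. LGALS3BP in the macaque had 312.9 and 215.6 CPM and reached 234.1 elsewhere, in pericyte-like cells of rhesus 1. Its level in rhesus 2 was not compared with the other classes of rhesus 2 alone. LGALS3BP in the baboon had at most 157.2 CPM elsewhere, in stroma-like cells of baboon 1. Its Sertoli-like level of 203.1 CPM in baboon 1 lay above this, while the 157.3 of baboon 2 was level with it. The genes lowest in the class were shared in part: STING1, the adaptor of DNA sensing (-5.97 ± 0.73, adjusted p = 5.47e-07, and -3.13 ± 0.52, adjusted p = 0.000226), TRIM22 (-4.73 ± 0.60, adjusted p = 9.04e-07, and -3.22 ± 0.78, adjusted p = 0.00585) and SOCS3, an inhibitor of cytokine signalling (-4.73 ± 0.43, adjusted p = 4.33e-09, and -2.66 ± 0.37, adjusted p = 3.33e-05), in baboon and macaque. SP100 (-4.71 ± 0.60, adjusted p = 9.42e-07) and GBP1 (-4.32 ± 0.57, adjusted p = 1.39e-06) followed in the baboon, and UBE2L6 (-2.41 ± 0.40, adjusted p = 0.000194) and CD74 (-2.02 ± 0.42, adjusted p = 0.00178) in the macaque. The baboon animals differed: SOCS3 was at 0.480 and 9.54 CPM (15 and 330 UMIs) and SP100 at 0.160 and 1.68 CPM (5 and 58 UMIs). The SOCS3 level of baboon 2 lay above that of germ-like cells (4.84 and 4.90 CPM). STING1 rested on 5 and 11 UMIs there. Without the animal as a block, 3 rhesus genes were higher and 5 lower (8.57% and 3.92% of all genes), and edgeR called neither DHX58 (adjusted p = 0.139) nor CD74 (0.234) there, nor USP18 (0.0960) and TAPBP (0.110) in the baboon. DESeq2 with its own size factors had 11 of 72 baboon genes higher and 38 lower (16.2% and 24.5% of all genes), and did not call DHX58 in the macaque (adjusted p = 0.0837).

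In germ-like cells, 44 of 72 baboon genes were lower and 3 higher (18.7% and 34.9% of all genes), and 28 of 57 rhesus genes were lower and 1 higher (16.8% and 28.9%). The median log2 fold change of the list was -2.13 in the baboon, beside 0.33 over all genes. Among genes with a UMI in every class, 44 of 64 and 28 of 44 were lower (23.2% and 20.5% of all such genes). Among the effectors, 26 of 37 fell in the baboon and 13 of 26 in the macaque, and none rose. B2M, the invariant chain of class I molecules, was at 66.8 and 27.8 CPM in baboon germ-like cells (-4.99 ± 0.22 SE, adjusted p = 3.88e-15), where the other classes had 182.3 to 7560.8 CPM. SAMD9 (1 and 0 UMIs, adjusted p = 4.02e-08), TRIM22 (2 and 1 UMIs, adjusted p = 1.03e-07), IFI44 (-4.27 ± 0.41, adjusted p = 5.79e-09) and SOCS3 (-4.59 ± 0.55, adjusted p = 1.84e-07) were the other strongest falls there. In the macaque these were HERC6 (1 and 0 UMIs, adjusted p = 0.00147), STING1 (1 and 1 UMIs, adjusted p = 0.000349), TRIM22 (4 and 0 UMIs, adjusted p = 0.00372), the adaptor MAVS (4 and 0 UMIs, adjusted p = 2.27e-05) and the DNA sensor IFI16 (-3.92 ± 0.52, adjusted p = 1.06e-05). HERC5 was the exception in both species. It was at 148.2 and 254.2 CPM in the germ-like cells of baboon 1 and 2 and at 156.3 and 137.6 CPM in those of rhesus 1 and 2, and rose by 1.43 ± 0.21 (adjusted p = 2.94e-06) and 2.53 ± 0.32 (adjusted p = 5.88e-06). HERC5 was also called higher in Sertoli-like cells, and the part of the Sertoli markers found in germ-like cells in this result was not tested. Its substrate ISG15 was at 19.4 and 36.0 CPM in the same baboon cells. Of the other enzymes that attach ISG15, UBA7 was called lower there, at 2.91 and 4.90 CPM. UBE2L6 was not called there, at 17.4 and 13.1 CPM. In the macaque, UBA7 and UBE2L6 were both called lower in germ-like cells. IRF3 (0.91 ± 0.18, adjusted p = 0.000148) and IFNE (6.78 and 17.2 CPM, adjusted p = 0.00658, again resting on a class without a UMI) were the other genes higher in baboon germ-like cells.

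**Figure D5:**
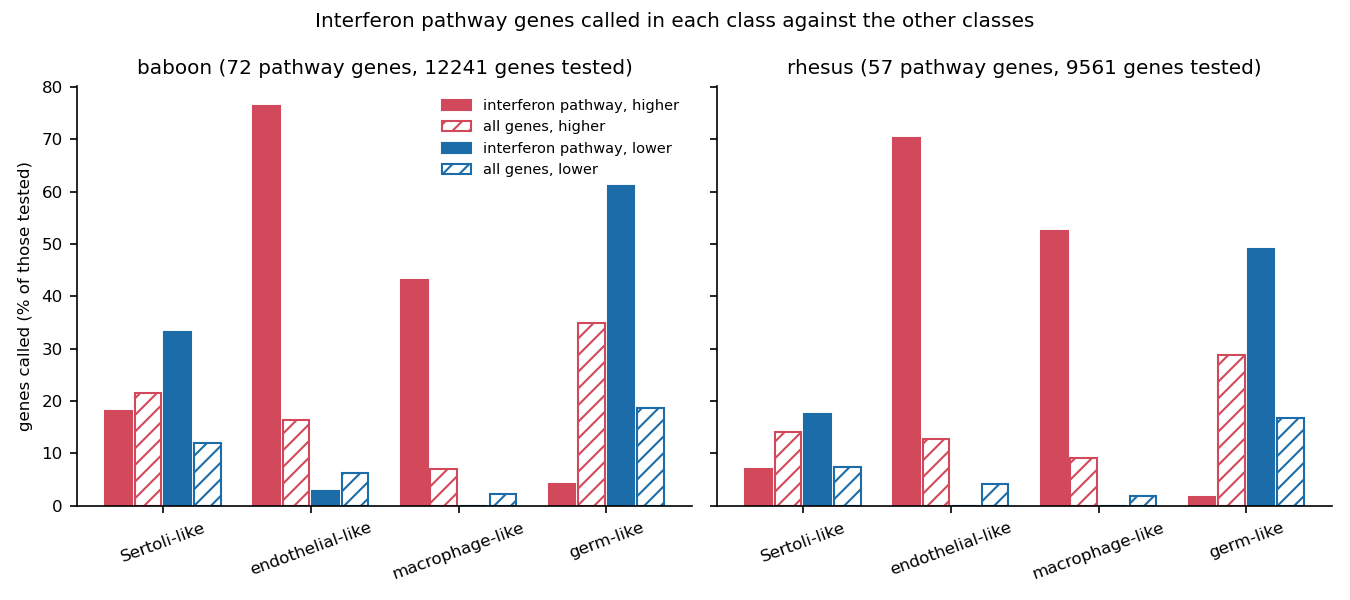
Percent of the interferon pathway genes tested (filled bars) and of all genes tested (hatched bars) that edgeR called higher (red) or lower (blue) in each class against the other named classes. In endothelial-like cells 55 of 72 baboon and 40 of 57 rhesus pathway genes were higher, and in germ-like cells 44 and 28 were lower.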

How the data were processed

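Single-cell suspensions of testis tissue were profiled by the study in 6 libraries. Per the labels and the study's methods, the authors aligned reads with Cell Ranger 3.1.0, using Mmul_10 for the macaque and Panubis1.0 for the baboon, and the deposited matrices hold raw UMI counts for every barcode, without normalization. All value columns were used (0 other per-sample columns). The authors' cell labels were not used here, so cells were called again from these counts: a UMI cutoff based on 5000 targeted cells, then a comparison of each barcode of at least 500 UMIs with the free RNA profile (10000 simulations, adjusted p of 0.01), and at least 200 genes. The cells with the highest Scrublet scores (scanpy 1.11.5; 0.8% per 1000 cells) were marked as doublets and kept.

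Libraries of a species were integrated with Seurat 5.3.0 and sctransform 0.4.2 on R 4.3.3 (3000 features without the members and the pathway genes, 30 components, resolution 0.5). Clusters were named from marker lists, and a name needed at least 3 detected markers. Levels are CPM over the UMIs of a class, with exact Poisson intervals of 95%. A level of 0 is given with a floor of 3 counts. Intervals and floors cover counting error only. Library depth was 16875294 to 49803025 UMIs, and shares were taken after thinning to 1000 UMIs per cell (numpy 2.4.6, scipy 1.17.1, pandas 2.3.3).

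The members and lists were chosen with earlier results of these data known, so members carry no test. For the same reason the counts of the pathway list beside all genes are a description. Other pathway genes were tested on UMI sums per animal and class (at least 10 cells) with edgeR 4.0.16, class plus animal as a block, Benjamini-Hochberg adjusted over all genes at 0.05. The animal was the block because sums of the same animal come from the same libraries. Text names up to 5 called genes per direction and class, by largest change. On simulated counts of the endothelial-like comparison, 85.5% (baboon, 10055 genes) and 89.0% (rhesus, 8460 genes) of 200 genes with a log2 change of 2 were recovered, with 9 and 20 unchanged genes called. The simulation had a fixed spread, no animal effect and no class differences in the other genes. The changed genes were not scarce, so these figures need not hold for the real sums. DESeq2 1.42.0 and the settings named in the closing section were alternatives. Further genes of the pathway list entered the counts but are left unnamed here.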

Additional observations from a re-analysis of the deposited data

How the results depend on the processing

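Counts of called pathway genes, higher and lower together, stayed within 1.5 times under DESeq2, no filter on low counts, sums per library, resolution 0.8 and the other settings tried, with these exceptions. Baboon macrophage-like cells had 12 with the UMI cutoff alone and 20 without the cells with lymphoid markers, against 31. Rhesus Sertoli-like cells had 8 with no replicate block, against 14, and the other 7 counts without the block were 20 to 49. The animal is a true pairing, since sums of 1 animal share its libraries. The joint counts hide direction: in baboon Sertoli-like cells DESeq2 called more genes of the list lower, as given above, and more of all genes (24.5%, against 12.0%). Leaving out 1 library gave 32 to 36 called genes in Sertoli-like, 55 to 57 in endothelial-like, 24 to 28 in macrophage-like and 43 to 48 in germ-like cells of the baboon, and 15, 36 to 37, 22 to 26 and 26 to 27 in the macaque. The shares of all genes called in these fits are not given here, so the counts describe the list alone. Without baboon replicate 3 or rhesus replicate 1 only 1 animal is left, so those fits have no residual degrees of freedom and were not run.

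Of the log2 ratios to Sertoli-like cells, that of ISG15 in rhesus endothelial-like cells changed sign from -0.05 to 0.12 without the cells with lymphoid markers and ran from -0.67 to 0.01 over left-out libraries, and that of MX1 from -0.14 to 0.14, while IFIT1 went from 2.24 to 2.54 without those cells. The germ-like ratio of rhesus IFI6 (-2.89) was -3.16 without doublets, -3.11 with the UMI cutoff alone, -3.06 with interferon genes kept in clustering, -3.28 with free RNA subtracted, and -3.33 to -2.67 over left-out libraries. That of rhesus IFI27 (-2.97) was -3.39 with free RNA subtracted and -3.83 to -2.67 over left-out libraries, and that of baboon IFIT3 (-2.97) was -3.36 to -2.83. The cause was not tested.

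Over all genes, calls fell from 4102 in baboon Sertoli-like cells to 2642 with the UMI cutoff alone and 2301 with no replicate block, and from 1133 in baboon macrophage-like cells to 500 with that cutoff. With no replicate block they were 1782, against 2769, in baboon endothelial-like, 1194, against 2047, in rhesus Sertoli-like and 1032, against 1628, in rhesus endothelial-like cells. Sums per library gave 3090 and 2602 for these last 2 classes. Among genes with a UMI in every class, 697 baboon and 631 rhesus genes, against 1133 and 1055, were called in macrophage-like cells. STING1 and GBP1 in baboon Sertoli-like cells were not called at resolution 0.8 or with interferon genes kept in clustering, nor STING1 without replicate 2, nor HERC6 in rhesus germ-like cells without replicate 2 or 3, because another class then held no UMI. Single calls were also lost for OAS2 in baboon macrophage-like cells (edgeR adjusted p = 0.0675 to 0.484), CIITA in rhesus macrophage-like cells without replicate 3 (0.0507) and IFNE in baboon germ-like cells with the UMI cutoff alone (0.0504). The settings on lymphoid markers, on member levels without a library and on a UMI in every class were chosen after seeing the data. Depth limits the classes of few cells most, where single UMIs set the levels.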
